A study of Rattus norvegicus with 2 samples.

Results

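The immediate early transcription factors described here are 10 genes, Fos, Fosb, Fosl1, Jun, Junb, Egr1, Egr2, Egr3, Nr4a1 and Atf3. They were taken by gene symbol from the 17327 genes of the authors' deposited comparison, and all 10 were found there. The cells were rat myometrial progenitor cells, cultured precursors of the uterine smooth muscle. They came from DES-exposed animals and from VEH-exposed animals (DES usually stands for diethylstilbestrol, a synthetic estrogen, and VEH for vehicle). Each group was sequenced as 1 library (n = 1), a pool from 5 animals, with cells at passages 1 to 3. The sources used here give no strain, age, dose or time of exposure, and no passage for each library. The series text describes the study as an examination of gene expression after developmental exposure to endocrine disruptors.

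Immediate early genes are transcribed within minutes of a stimulus, without new protein synthesis, by factors that already sit at or near their promoters. Among these are SRF with its TCF partners, which bind the CArG box, and CREB-family factors, which bind the cyclic AMP response element (CRE). Their mRNAs are short-lived, and growth factors, serum, mechanical strain, stress and tissue handling can all induce them. FOS and JUN proteins pair through leucine zippers to form AP-1, EGR proteins are zinc finger activators, NR4A1 is an orphan nuclear receptor and ATF3 is a stress-induced leucine zipper protein. In the rodent uterus, Fos is a long-known early gene of the estrogen response.

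Whether DES or VEH stands on top of the deposited fold change is not stated. The name numerator library is used for the library in which a read makes the fold change larger. The other is the denominator library, so higher and lower say nothing of what DES did. Reads of each library were recovered from the deposited means; they summed to 106599579 reads (numerator) and 104793348 reads (denominator). Normalised reads are reads divided by the library's size factor. A gene was called higher or lower when its ratio, with 1 normalised read added to each library, was at least 2-fold, its mean was at least 20 normalised reads and the 95% counting interval of its fold excluded 1. With 1 library per group there is no replicate error and no test. All intervals cover counting error only; without molecular identifiers, several reads can come from 1 molecule.

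Of the 10 genes, 6 were higher in the numerator library, 1 was lower and 3 stayed within 2-fold. Over the 11212 genes with a mean of at least 20, 13.9% were higher and 12.7% lower by the same rule. Among the 6274 genes with a mean of at least 2000, which hold 9 of the 10, these shares were 8.5% and 7.46%, and 5 of the 9 were higher. With a limit of 3-fold, 4 of the 10 were higher and 0 lower, against 9.07% and 7.1% of the 11212 genes. The 10 genes had a median log2 ratio of 1.13, and all 11212 genes one of 0.01. In order of ratio, Egr3, Nr4a1, Egr2, Atf3, Fosb and Junb were higher, Egr1, Jun and Fos lay between them and 0, and Fosl1 was lower. In RNA of whole cultures, fewer cells of a type and less RNA per cell cannot be told apart.

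**Figure D1:**
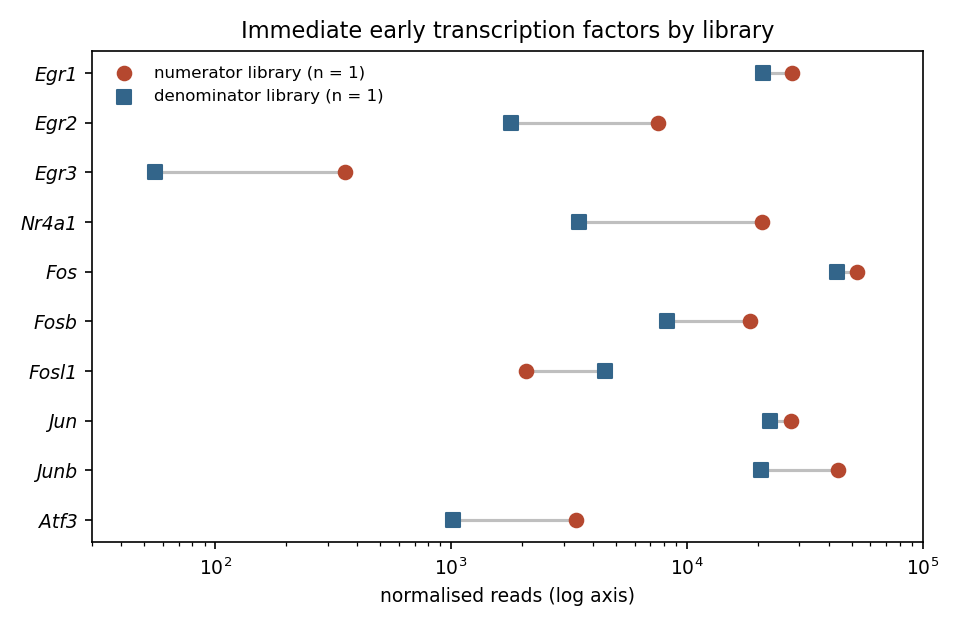
Normalised reads of each gene (x axis, log scale) in the numerator library (circles) and the denominator library (squares), 1 library each, joined by a line. Only Fosl1 has its circle left of its square, at 2071 against 4509 normalised reads; levels of different genes are not comparable here because they are not divided by gene length.

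Promoters of 4 genes are shown, to set side by side genes with different ratios: Nr4a1 and Egr2 among the higher genes, Egr1 within the limit and Fosl1, the lower gene. Junb, whose window also holds a CRE core, is not printed. The RefSeq table (GRCr8) held Fosb, Fosl1, Junb, Egr1, Egr2 and Nr4a1, 6 of the 10 genes. Fos, Jun, Egr3 and Atf3 were not matched. Each line gives the 250 bases before the table's start for that gene, 5′ to 3′ on the gene's strand. Capitals mark exact matches to the CArG box and to the CRE core, TGACG or its reverse complement CGTCA. The CArG box was searched as CC, then 6 bases of A or T, then GG, and near matches were not counted.
Nr4a1 (chr7:134259888-134260137, plus strand): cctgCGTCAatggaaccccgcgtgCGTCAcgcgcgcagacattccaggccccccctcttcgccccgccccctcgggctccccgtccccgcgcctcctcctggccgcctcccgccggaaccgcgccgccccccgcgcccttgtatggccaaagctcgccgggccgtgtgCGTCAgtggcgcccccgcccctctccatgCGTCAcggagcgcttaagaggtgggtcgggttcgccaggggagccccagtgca
Egr2 (chr20:21054442-21054691, minus strand): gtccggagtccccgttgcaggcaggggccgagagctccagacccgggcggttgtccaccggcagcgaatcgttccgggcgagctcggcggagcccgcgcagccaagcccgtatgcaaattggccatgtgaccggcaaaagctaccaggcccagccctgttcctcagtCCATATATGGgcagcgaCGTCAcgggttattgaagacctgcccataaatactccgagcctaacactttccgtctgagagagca
Egr1 (chr18:26736828-26737077, plus strand): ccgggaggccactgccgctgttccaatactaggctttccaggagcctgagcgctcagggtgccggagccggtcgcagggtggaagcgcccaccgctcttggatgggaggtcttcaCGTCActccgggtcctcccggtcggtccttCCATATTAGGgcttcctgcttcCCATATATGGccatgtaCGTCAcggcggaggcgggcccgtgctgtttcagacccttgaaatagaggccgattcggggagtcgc
Fosl1 (chr1:212183635-212183884, plus strand): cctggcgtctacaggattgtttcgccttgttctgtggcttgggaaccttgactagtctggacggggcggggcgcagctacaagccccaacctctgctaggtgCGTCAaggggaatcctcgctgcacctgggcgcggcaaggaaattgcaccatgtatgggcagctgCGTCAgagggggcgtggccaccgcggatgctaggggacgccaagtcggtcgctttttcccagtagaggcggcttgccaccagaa

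Egr1 and Egr2 shared an arrangement: the same CArG box, CCATATATGG, stood 83 to 74 bases before the start in both, and a CRE core followed it at 66 to 62 bases, with 7 bases between. Egr1 held a further CArG box, CCATATTAGG, and a further CRE core. Nr4a1 held 4 CRE cores and no match to the CArG box. Fosl1 held 2 CRE cores, Junb 1, and Fosb none. The CRE core stood in 18.2% of the 33469 promoter windows of the same length, 4 or more of it in 0.173%, the CArG box in 501 of the windows, and both together in 0.230%.

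Other motifs were searched on both strands in the same windows. The full CRE, TGACGTCA, which contains the CRE core, had no match in these 6 windows (1.59% of all windows). The AP-1 site, TGACTCA or TGAGTCA, had none either (4.05%), nor did the NR4A site AAAGGTCA (1.24%). The EGR site, GCGGGGGCG or GCGTGGGCG, stood once in a window of these genes, in Nr4a1 at 73 to 65 bases before the start (2.85% of all windows). A match is a description of the letters only.

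**Figure D2:**
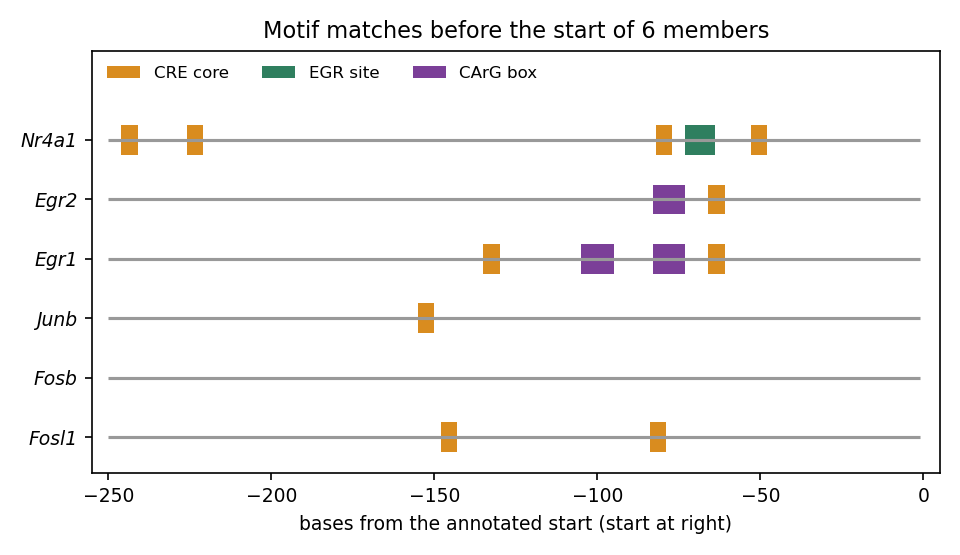
Positions of the CArG box, the CRE core and the EGR site in the 250 bases before the annotated start (x axis, bases) of the 6 genes in the RefSeq promoter table. Egr2 and Egr1 carry a CArG box and a CRE core at the same distances, Nr4a1 carries 4 CRE cores, and Fosb has no match.

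Among the EGR genes, Egr1 stayed within 2-fold while Egr2 and Egr3 were higher. Egr1, the founding member and a transcription factor induced by growth factors, was read 28069 times in the numerator library, against 20777 times in the denominator library, or 27817 and 20965 normalised reads. This is 1.33-fold higher (interval 1.30 to 1.35), and 29.3% of all described genes had a higher ratio. Egr2 or Krox20, needed in the mouse for myelination and hindbrain patterning, had 7593 numerator-library reads against 1783. After normalisation these were 7525 and 1799, a 4.18-fold difference (interval 3.97 to 4.41).

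Egr3, needed in the mouse for muscle spindles, had 359 numerator-library reads against 55. It was 6.41-fold higher, with an interval of 4.82 to 8.68, the widest of the 10 because it rests on the fewest reads. Of all described genes, 5.88% had a higher log2 ratio than Egr3 and 7.26% a higher one than Egr2. Relative to Egr1, the fold of Egr2 was 3.15 times as large (interval 2.98 to 3.33) and that of Egr3 4.83 times as large (interval 3.64 to 6.42). Both intervals exclude 1 when each read is taken as an independent count, and they hold no spread between animals. The fourth EGR gene, Egr4, was counted with the other immediate early genes and had only 35 and 13 reads (2.64-fold higher, interval 1.36 to 5.45).

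Nr4a1 encodes Nur77, an orphan nuclear receptor that can act without a ligand. It was read 21092 times in the numerator library, against 3461 times in the other, or 20902 and 3492 normalised reads. It was 5.99-fold higher (interval 5.77 to 6.21), and 6.04% of all described genes had a higher ratio. Its relative Nr4a2 was 2.37-fold higher (2772 and 1151 reads), and Nr4a3 stayed within the limit at a log2 ratio of 0.40. Nr4a1 lies on chromosome 7, whose 729 described genes had a median log2 ratio of -0.57, the lowest of the chromosomes with at least 100 described genes. The 50 genes nearest to Nr4a1 had a median of -0.62, so that its log2 ratio of 2.58 stood 3.20 above its surroundings.

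The FOS genes went in different directions. Fos, the prototype of the group, had 53266 numerator-library reads against 42939, or 52787 and 43329 normalised reads. It was 1.22-fold higher (interval 1.20 to 1.23), well inside the limit, and 34.8% of all described genes had a higher ratio. Fosb, whose shorter splice form is known to accumulate under repeated stimulation in the brain, had 18715 and 8139 reads. It was 2.26-fold higher (interval 2.20 to 2.32), just past the limit. The 36-base single reads were summed over the gene, so its splice forms are not separated.

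Fosl1 encodes FRA-1, a FOS protein without the strong activation domain of FOS that is typically induced later and held longer. It was read 2090 times in the numerator library, against 4468 times in the other, or 2071 and 4509 normalised reads. It was 2.18-fold lower (interval 2.07 to 2.29), the only one of the 10 genes that was lower. Relative to Fos, the fold of Fosb was 1.85 times as large (interval 1.80 to 1.91), whereas that of Fosl1 was 2.65 times smaller (interval 2.51 to 2.80). The remaining FOS gene, Fosl2, had 2175 and 2270 reads and a log2 ratio of -0.09.

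The genes around Fosl1 had log2 ratios below 0 too. Its nearest described neighbours, Drap1, Bles03, Fibp and Ctsw, had log2 ratios of -0.85, -0.76, -0.73 and -0.56, and the 50 nearest genes had a median of -0.52. Against that median, Fosl1 had a log2 ratio of -0.60 and was no longer 2-fold lower. The part of this stretch of chromosome 1 in the value of Fosl1 was not tested.

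Among the JUN genes, Jun stayed within the limit and Junb was higher. Jun, which can bind DNA as a pair with itself, had 28014 numerator-library reads against 22329, or 27762 and 22532 normalised reads. It was 1.23-fold higher (interval 1.21 to 1.25), and 34.0% of all described genes had a higher ratio. Junb, a weaker activator that can oppose JUN at some promoters, had 44233 and 20395 reads, or 43835 and 20580 normalised reads. It was 2.13-fold higher (interval 2.09 to 2.17). The fold of Junb was 1.73 times that of Jun (interval 1.69 to 1.77). The third JUN gene, Jund, which is expressed without induction in most cells, had 13432 and 12127 reads and a log2 ratio of 0.12.

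Atf3 is induced by stress through ATF4 and through MAP kinases, and can repress as well as activate. It was read 3431 times in the numerator library, against 1005 times in the other, or 3400 and 1014 normalised reads. It was 3.35-fold higher (interval 3.12 to 3.60). Its upstream factor Atf4 lay the other way in RNA, with 57357 and 113917 reads (2.02-fold lower), which does not show the activity of ATF4 protein. Ddit3, another leucine zipper gene under ATF4, had 2959 and 15337 reads and was 5.28-fold lower (interval 5.07 to 5.49). Both lie on chromosome 7. After subtraction of that chromosome's median their log2 ratios were -0.44 and -1.83, so only Ddit3 stayed beyond 2-fold.

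**Figure D3:**
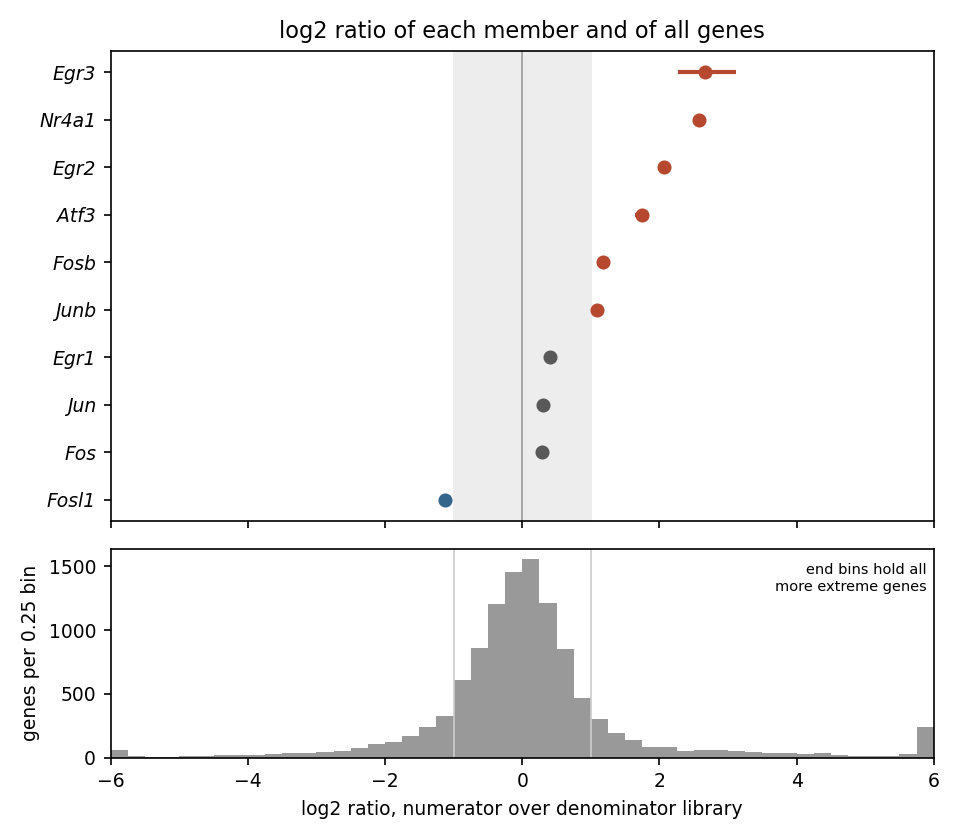
Log2 ratio of each gene, numerator over denominator library, with its 95% counting interval as a bar (above; red is at least 2-fold higher, blue at least 2-fold lower, grey within the shaded 2-fold limit), and the number of genes per 0.25 bin for all 11212 described genes (below, end bins hold all more extreme genes). Egr3 and Nr4a1 lie highest at 2.66 and 2.58, and Fosl1 lies at -1.12; bars are hidden by the points except for Egr3.

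In the authors' deposited table the shrunken log2 fold changes of 9 of the 10 genes were above 0. By the recovered reads, 50.4% of all described genes had a log2 ratio above 0. That table gave Nr4a1 2.04 (standard error 1.01), Egr3 1.77 (1.17), Egr2 1.70 (0.95), Atf3 1.46 (0.92), Fosb 1.04 (0.78), Junb 0.98 (0.76) and Fosl1 -0.99 (0.79). Fos, Jun and Egr1 had 0.27, 0.28 and 0.38 in the authors' deposited table. Its unadjusted p was 0.044 for Nr4a1 and 0.0749 for Egr2, and its adjusted p was 0.999 for all 10 genes. By that table, 5 of the 10 genes were at least 2-fold higher, where 10.5% of all described genes were, and 0 were at least 2-fold lower, against 9.78% of those genes. Those p-values rest on the authors' model for a comparison with 1 library in each group.

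Neighbouring genes were taken as the nearest 2 on each side with a mean of at least 20. Of the 24 neighbours of the 6 higher genes, 4 were higher and 1 lower, and of all 40 neighbours of the 10 genes 8 were higher and 1 lower, beside 13.9% higher and 12.7% lower among all described genes. The 4 neighbours of Egr2 had log2 ratios of -0.24 to 0.05, and those of Junb -0.55 to 0.38. Egr3 lay beside Tnfrsf10b, which with 2030 and 106 reads had a larger ratio than Egr3 itself (18.8-fold higher), while its other neighbours were within the limit. Beside Atf3, Tatdn3 was 2.29-fold higher, Fam71a had 56 and 3 reads and was higher too, Nsl1 was 2.54-fold lower, and Nenf had a log2 ratio of -0.93. The neighbours of Fosb all lay above 0, from 0.36 (Ppm1n) to 0.88 (Cd3eap), within the limit. Jun lay beside 3 genes with larger ratios than its own: Tek, with 553 and 67 reads, was 8.11-fold higher, Eqtn had 50 and 17 reads, and Hook1 had 48 reads against 0. Its neighbour Fggy had 1506 and 1771 reads, a log2 ratio of -0.26. Nr4a1 had 1 higher neighbour, Krt80, with 218 and 43 reads (4.98-fold), and the other three had log2 ratios of -0.64 to -0.31. Egr1 also had 1 higher neighbour, Reep2, with 3343 and 595 reads (5.52-fold), a larger ratio than that of Egr1. The neighbours of Fos stayed within the limit, from -0.74 (Flvcr2) to 0.41 (Nek9).

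**Figure D4:**
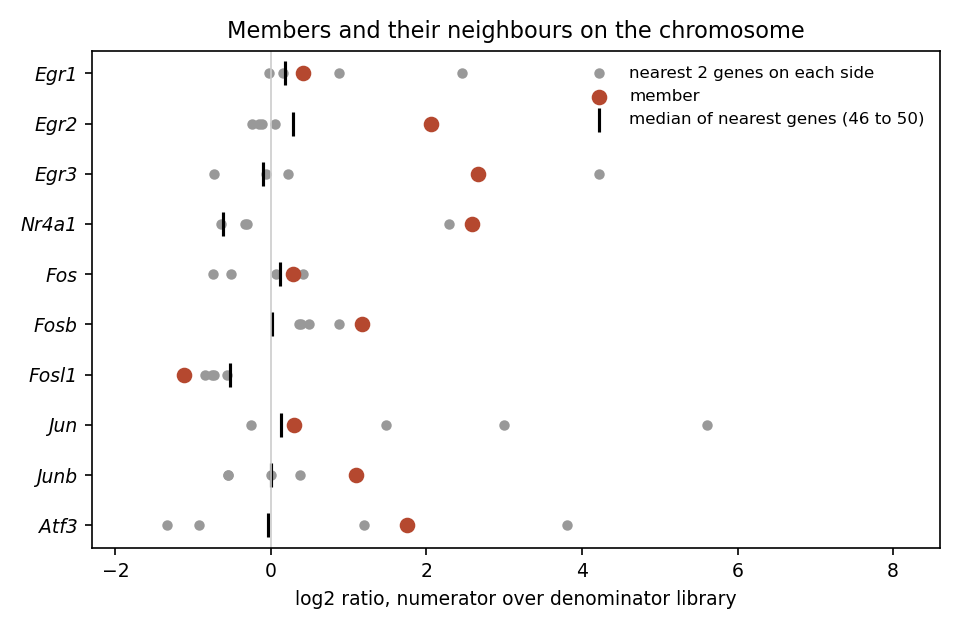
Log2 ratio (x axis, numerator over denominator library) of each of the 10 genes (red), of the nearest 2 described genes on each side (grey) and the median of the nearest 46 to 50 genes (black tick), in RefSeq GRCr8 order. Nr4a1 and Fosl1 lie in stretches with medians of -0.62 and -0.52; the other medians lie between -0.10 and 0.28.

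The rest of the immediate early response was described with lists that hold none of the 10 genes. Of 17 other immediate early transcription factors, 6 were higher and 0 lower, with a median log2 ratio of 0.73. Over all described genes, 13.9% were higher and 12.7% lower. Csrnp1, a nuclear protein induced by axin, was 3.14-fold higher (6251 and 1957 reads). Klf2 and Klf4, zinc finger factors of the Krüppel-like family, were 2.64-fold higher (1492 and 554 reads) and 2.42-fold higher (23722 and 9638 reads). Ier2 and Nfil3 lay just inside the limit at log2 ratios of 0.98 and 0.99, and Myc, the proliferation factor, had 0.68. Of the 17, 13 had log2 ratios above 0 and 4 below 0, beside 50.4% of all described genes above 0. Ier5 was lowest at -0.87 (3335 and 5997 reads).

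Of 22 immediate early genes for other proteins, 15 were higher and 2 lower (median 1.44), beside 13.9% and 12.7% of all described genes. Ptgs2, the inducible cyclooxygenase of prostaglandin synthesis, had 166344 numerator-library reads against 4636 (35.2-fold higher, interval 34.2 to 36.3). Cxcl1, a neutrophil chemokine, was 11.7-fold higher (3896 and 326 reads). Arc, a protein of synaptic plasticity, was 9.04-fold higher (1288 and 140 reads). The lower members were Sik1, a salt-inducible kinase that restrains CREB coactivators, at 15.4-fold (787 and 11928 reads), and Gadd45b at a log2 ratio of -1.61 (2879 and 8604 reads). Gadd45b, which lies on chromosome 7, was named after its value was seen.

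The lists upstream of the 10 genes are read against the same shares, 13.9% higher and 12.7% lower over all described genes. Of 12 matched promoter-bound activators and coactivators, 0 were higher and 0 lower (median -0.30). Srf itself had 7494 and 4438 reads, a log2 ratio of 0.73, and its TCF partners Elk1, Elk3 and Elk4 had -0.33, -0.73 and 0.19. Creb1 had 624 and 812 reads (-0.41). Of 21 Ras proteins and kinases, 2 were higher and 2 lower (median 0.15). Of the RSK kinases, which phosphorylate SRF and CREB, Rps6ka3 was 3.20-fold and Rps6ka2 3.03-fold higher and Rps6ka1 2.54-fold lower. Map2k6, a kinase that activates p38, was 4.85-fold lower. The ERK gene Mapk3 had a log2 ratio of -0.51. RNA levels do not show kinase activity.

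Of 15 MAP kinase phosphatase and Sprouty-family genes, which act in feedback, 2 were higher, 1 was lower and 12 stayed within the limit (median 0.02), beside 13.9% higher and 12.7% lower over all described genes. Dusp1, itself an immediate early phosphatase of p38 and JNK, was 2.21-fold higher (61772 and 27392 reads), and Dusp5, which acts on nuclear ERK, 3.05-fold (3569 and 1149 reads). Spry4, an inhibitor of Ras signalling, was 2.17-fold lower (1081 and 2306 reads). Of 4 described cofactors of EGR and NR4A proteins, Nab2, the corepressor that EGR proteins induce, was 2.81-fold lower (7055 and 19448 reads) and Nab1 had 0.82. Nab2 also lies on chromosome 7, and had a log2 ratio of -0.92 after subtraction of that chromosome's median.

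Leucine zipper partners had 1 of 15 members higher and 3 lower (median -0.12), beside 13.9% higher and 12.7% lower over all described genes. Maff, a small MAF protein, was 2.20-fold higher (5281 and 2353 reads), and Cebpd, a C/EBP factor, was lower beside Ddit3 and Atf4, at 2.65-fold (1474 and 3837 reads). Genes reported as AP-1 targets elsewhere were higher in 8 of 17 cases and lower in 2 (median 0.86), beside the same shares. The proteases Mmp10, Mmp13 and Mmp3 and the chemokine Ccl2 had the largest ratios, with Mmp10 at 34181 reads against 118 (284-fold higher, interval 237 to 344). Mmp10, Mmp13 and Mmp3 all lie on chromosome 8 and were counted singly. The gelatinase gene Mmp9, with 10 and 149 reads, and Plau, the urokinase gene, with 2563 and 18557, were lower. Of 7 reported EGR1 targets, F3, or tissue factor, which starts coagulation, was 25.3-fold higher (56332 and 2184 reads), and Nab2 was lower (median 0.20).

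Stress genes were described beside Atf3, and are read against 13.9% higher and 12.7% lower over all described genes. By sign alone, 50.4% of all described genes had a log2 ratio above 0. Integrated stress genes had 0 of 10 members higher and 2 lower, Ddit3 and Atf4 (median -0.27). Of the 10, 8 had log2 ratios below 0, and Chac1 and Asns lay above 0 at 0.89 and 0.15. Heat shock genes, which together with immediate early genes respond to handling of cells, had 2 of 9 higher and 0 lower, with a median of 0.59 and all 9 above 0. The chaperone genes Hsph1 and Hspb1 were 2.35-fold and 2.17-fold higher. The sources used here do not tell how the cultures were handled before lysis, and the part of the heat shock genes in the result was not tested.

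**Figure D5:**
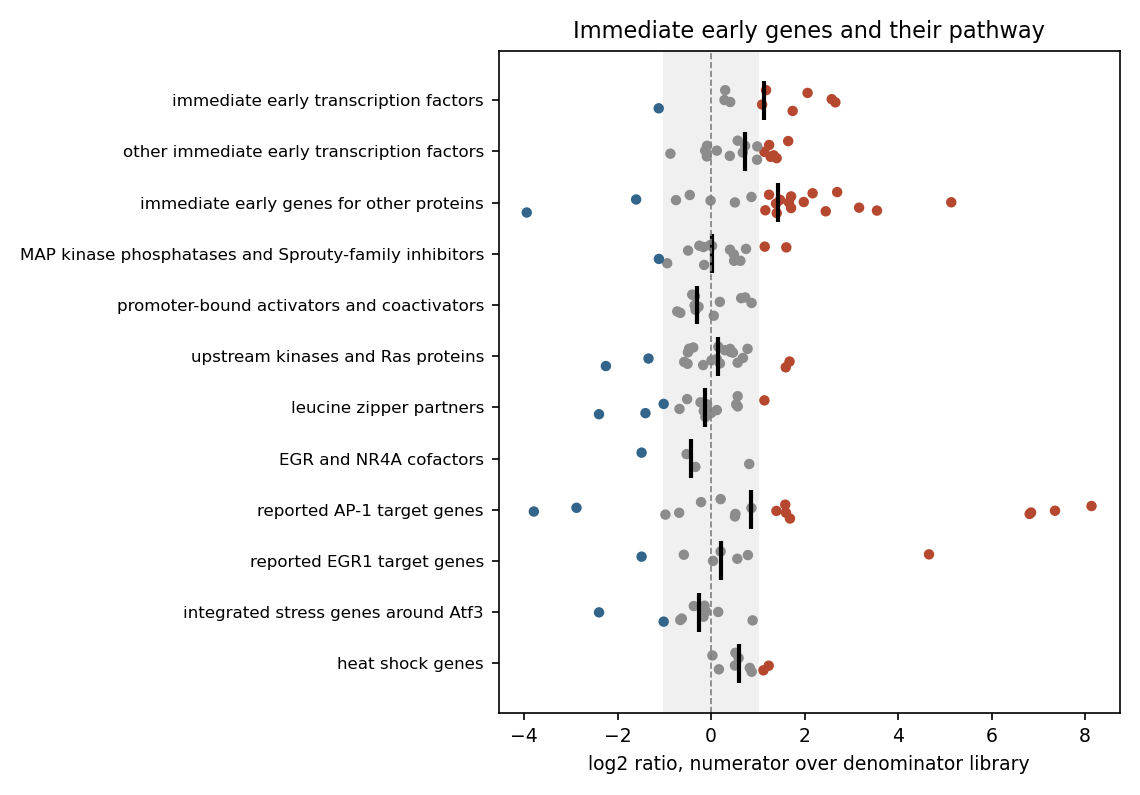
Log2 ratios (x axis, numerator over denominator library) of every described gene of the 10 immediate early transcription factors and of the 11 related lists; red is at least 2-fold higher, blue at least 2-fold lower, grey within the limit, black bars are medians and the dashed line is the median of all genes. The medians are 1.13 for the 10 genes, 0.73 and 1.44 for the other immediate early lists, and -0.30 for the promoter-bound activators.

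The cell type markers also differed between the libraries. Over all described genes, 13.9% were higher and 12.7% lower, and these marker lists are short. Smooth muscle markers were abundant, with 2 of 8 higher (Tagln and Actg2) and a summed level of 1658818 normalised reads in the numerator library against 933770 in the denominator library. Mesenchymal progenitor markers were read in both libraries, 2 of 6 higher and 3 lower, and summed to 203120 against 373197. Fibroblast markers had 1 of 5 higher and 4 lower (4590093 against 11322719, almost wholly reads of Col1a1 and Col1a2). Endothelial markers had 1 of 4 described members higher and 3 lower (595 against 2553, with Kdr and Emcn listed at 0). Most of these endothelial reads were of Tek in the numerator library (553 and 67 reads) and of Cdh5 in the other (2 and 2166 reads). Macrophage markers had 1 of 3 higher and 2 lower (295 against 400, with Ptprc and Aif1 listed at 0). Most macrophage reads were of Cd68 in the numerator library (271 and 54 reads) and of Csf1r in the other (22 and 270 reads). Epithelial markers had 1 of 3 higher and 1 lower (3010 against 1568, mostly Krt8, with Cdh1 listed at 0). No lymphocyte marker reached the minimum. The part of these differences in the ratios of the 10 genes was not tested.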

How the data were processed

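Per the labels' protocols, RNA was isolated with a column kit, treated with DNase I and sequenced as single reads of 36 bp. The submitters' processing notes name TopHat, FastQC, SAMtools, featureCounts and DESeq2 with rn4 and rn5; the sources used here give no versions, settings or use of strand. Per the file headers, the authors' deposited table holds a mean signal over both libraries (read counts divided by size factors), a log2 fold change with its standard error, the statistic as a score, and the p-value with its adjusted p-value.

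Each mean is the sum of whole reads of both libraries, each times a fixed step, with size factors of 1.01 (numerator) and 0.991 (denominator). For 9307 of 13221 genes above 0, 1 pair of whole numbers met the mean. For 3812 genes a ridge negative binomial fit picked the pair that gave the deposited standard error; for 102 the pair nearest to the fold change was used. Of the 10 genes, 3 had 1 pair; for the other 7 the standard error was met within 5.15e-07, and the next pair with a fit missed it by at least 0.0987. Recovery was tested on simulated data and returned both reads for 3000 of 3000 genes simulated at this comparison's levels. Only 953 of these had several possible pairs, and 953 were returned. For the rest the mean alone fixed the pair. The simulation used the same ridge model, with its strength fitted to the deposited values, so other models were not tested. Intervals are exact Clopper-Pearson (ratios of folds: normal approximation on the log scale). Overlapping or antisense genes may share reads. RefSeq GRCr8 placed 11010 genes and gave the promoters.

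All 10 genes were named, with neighbours, markers and up to 4 of the most changed genes of each list. Further genes were named after their values were seen. Some genes of these pathways are not reported here. The members and lists were chosen with earlier results of these data known. Of 200 list symbols, 7 were not matched (Mkl1, Mkl2, Crtc3, Ep300, Mef2c, Braf, Nfe2l1), 9 are listed at 0, and 11 are in more than 1 list. Python 3.11.15, numpy 2.4.6, pandas 2.3.3 and scipy 1.17.1 were used.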

Additional observations from a re-analysis of the deposited data

How the results depend on the processing

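The counts of 6 higher and 1 lower genes and the median log2 ratio of 1.13 were recomputed under 11 alternatives, of which the minimum mean of 2000 and scaling to the 50 nearest genes were chosen after seeing the data. With the genes that had 1 possible pair of reads, 3 remain by construction, of which 2 were higher and 1 lower, with a median of 1.74. The lower count became 0 with a 3-fold limit, with the authors' deposited fold change and with scaling to the 50 nearest genes; a wider limit and a shrunken value put Fosl1 inside by construction, and the cause under the last was not tested. The median was 1.09 with a minimum mean of 2000, which leaves out Egr3, and 1.01 with the authors' deposited fold change, which is shrunken. Of 53 recomputed values of single genes, 53 kept their sign. A pseudocount of 5, the shrunken fold change and keeping only genes with 1 possible pair could not change a sign. Scaling by total reads moved all log2 ratios by less than 0.01, too little to change a sign. No paired analysis was possible because each group has 1 library, and for the same reason no library could be left out. Depth limits Egr3 and Egr4 most, and no spread between animals is known.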
